A study of Homo sapiens with 16 samples.

Results

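The genes described here are 10 members of Wnt signalling, chosen by name as its ligands (WNT5A, WNT5B, WNT7B), receptors and co-receptors (FZD2, FZD6, LRP6, ROR1), feedback genes (AXIN2, DKK1) and nuclear factor (TCF7L2). The choice was made with earlier results of these data known. Each gene was found by its symbol in 1 row of every table, so that 10 of 60658 listed genes are followed. Their RNA levels were measured by sequencing in MDA-MB-231, an established human breast cancer line of the triple-negative, mesenchymal kind. BMAL1 knockout (KO, labelled BMAL1 -/-) cells and wild-type (WT) cells were each given cisplatin, which crosslinks DNA, doxorubicin, which poisons topoisomerase, tunicamycin, which blocks N-linked glycosylation, or only the control treatment. BMAL1, the product of ARNTL, pairs with CLOCK to switch on the genes of the circadian clock. All cells were at passage 10 to 15, and each of the 8 groups had 2 biological replicates, 16 samples in all. Tunicamycin served the study as a negative control. The sources used here do not say whether the KO cells are 1 clone or how they were made, nor the doses and times of the drugs. An effect of the knockout therefore cannot be told apart from a difference between the particular cultures used.

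Wnt proteins are secreted lipid-modified ligands that bind Frizzled receptors. Together with the co-receptor LRP5 or LRP6 they stabilise beta-catenin, which then acts with TCF/LEF factors in the nucleus, and AXIN2 and DKK1 are among the genes that this branch turns on and that act back on it as brakes. Other ligands, WNT5A the best studied, signal mostly without beta-catenin through Frizzled and ROR receptors to JNK kinases and calcium, and in breast cancer cells this branch is known for its part in cell movement.

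Promoter sequences are shown for the genes whose levels are set out first below or that carry a motif. RefSeq promoter windows (assembly GRCh38.p14, 250 bases before to 50 bases after a transcription start, 300 bases each) were matched by symbol for 5 of the 10 genes, with 2 starts for WNT5A, 2 for WNT5B, 3 for TCF7L2 and 1 each for ROR1 and DKK1. The windows below are read 5′ to 3′ along the gene. The first WNT5A start lies in chr3:55487257-55487556 and the second in chr3:55481349-55481648, both on the minus strand. That of WNT5B lies in chr12:1616806-1617105 and that of DKK1 in chr10:52314031-52314330, both on the plus strand. Capitals mark TCF/LEF core motif matches (CTTTGA on the strand shown, or TCAAAG where it is on the other strand).
WNT5A, first start: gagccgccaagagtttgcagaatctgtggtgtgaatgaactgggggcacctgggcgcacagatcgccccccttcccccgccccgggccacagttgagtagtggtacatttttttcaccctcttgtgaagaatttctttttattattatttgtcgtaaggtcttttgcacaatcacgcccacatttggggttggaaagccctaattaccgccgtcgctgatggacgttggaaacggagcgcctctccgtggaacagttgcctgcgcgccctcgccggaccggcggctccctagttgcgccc
WNT5A, second start: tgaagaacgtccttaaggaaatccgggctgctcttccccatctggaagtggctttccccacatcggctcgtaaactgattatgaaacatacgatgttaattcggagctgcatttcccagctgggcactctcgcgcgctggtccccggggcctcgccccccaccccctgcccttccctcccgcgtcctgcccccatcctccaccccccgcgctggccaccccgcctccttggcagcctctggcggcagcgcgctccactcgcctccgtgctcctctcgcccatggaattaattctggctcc
WNT5B, first start: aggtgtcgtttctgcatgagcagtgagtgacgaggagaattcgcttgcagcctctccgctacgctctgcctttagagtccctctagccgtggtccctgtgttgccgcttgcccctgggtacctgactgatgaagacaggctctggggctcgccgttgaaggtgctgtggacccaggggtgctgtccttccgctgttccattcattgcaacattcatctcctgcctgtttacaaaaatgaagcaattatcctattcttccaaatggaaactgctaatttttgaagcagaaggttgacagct
DKK1: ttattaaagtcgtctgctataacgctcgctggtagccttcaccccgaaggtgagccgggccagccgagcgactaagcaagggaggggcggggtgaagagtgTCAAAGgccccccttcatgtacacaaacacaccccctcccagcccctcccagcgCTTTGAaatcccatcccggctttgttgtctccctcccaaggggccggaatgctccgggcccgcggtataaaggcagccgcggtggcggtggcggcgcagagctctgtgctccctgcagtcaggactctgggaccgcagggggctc

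The E-box CACGTG, the letters bound by CLOCK and BMAL1, reads the same on both strands and was in 0 of the 9 member windows, against 7.26% of all 35116 promoter windows. CTTTGA, searched on both strands, was found in the DKK1 window, which held it at 149 and at 95 bases before the start, and in no other member window. Of all windows, 12.9% held this motif at least once and 1.29% held it at least 2 times. No match of one motif can overlap a match of the other. The WNT5A windows held 21 and 22 CpG, that of DKK1 20, that of ROR1 29 and those of TCF7L2 25, 7 and 5, against 10 and 7 for WNT5B and a median of 14 over all windows. A match is a description of these letters and not evidence that a factor binds there.

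The deposited values are 1 FPKM (fragments per kilobase, relative to library size) per group, pooled by the authors from both replicates, so that no spread between replicates can be given beside a level. A gene counts as called, higher or lower in KO cells, if it has tested status in the table and a q of at most 0.05, where q is the p-value adjusted by Benjamini and Hochberg's method over every tested gene there. As a rough guide to depth, the lowest 5% of values above 0 lay under 0.0141 to 0.0388 FPKM in the 8 groups, and levels near these rest on few reads. ARNTL itself, the knocked-out gene, stood at 0.941 FPKM in KO and 1.26 in WT cells under cisplatin, 0.474 and 1.31 under doxorubicin, 2.24 and 3.25 under tunicamycin, and 0.889 and 5.67 in control. The KO value was below the WT value in all 4 pairs. The difference passed the test in doxorubicin and control, whereas q was 0.467 in cisplatin and 0.0810 in tunicamycin in the authors' deposited table. Transcript can remain from an edited gene, and the libraries labelled KO are called KO by their label. VIM, CD44, EGFR, AXL and MSN, taken as markers present in this line, were above 1 FPKM in all 8 groups. PGR was at 0 and ESR1 and CDH1 stayed at or below 0.349 FPKM. The other 3 of the 6 markers that should be low, ERBB2 (7.11 to 25.5 FPKM), EPCAM (1.03 to 6.33) and GATA3 (0.111 to 5.48), were not absent. One protocol text speaks of fibroblasts: of 7 fibroblast markers DCN was at 0 and 5 in all stayed below 1 FPKM in every group, and their summed level was 3.87 to 15.6 FPKM in KO and 1.03 to 9.06 FPKM in WT groups, mostly from COL1A1 and PDGFRB. The part of such differences in the results below was not tested.

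The 10 genes had no common direction, and the shares called have to be read against those of all genes. Under cisplatin 7 of 9 tested members were called (2 higher, 5 lower in KO), against 49.6% of all 14253 tested genes (25.4% higher, 24.2% lower). Under doxorubicin 6 of 9 were called (2 higher, 4 lower), against 45.1% of 11856 genes (24.4% higher, 20.7% lower). Under tunicamycin 5 of 10 were called (2 higher, 3 lower), against 49.3% of 13896 genes (27.2% higher, 22.1% lower). In control 8 of 10 were called (4 higher, 4 lower), against 43.8% of 12978 genes (22.7% higher, 21.1% lower). The share of members called under tunicamycin is thus close to that of all genes, and with 9 or 10 members the other shares rest on a few genes each. As the members were chosen with earlier results of these data known, their shares are descriptions only. WNT5A and FZD2 were higher in all 4 tables, 2 of the 8 members tested in all 4, against 9% of the 10881 genes tested in all 4. WNT7B was lower in all 4, 1 of 8, against 8.66%, and 17.7% of those genes moved in the same direction in all 4. The median log2 ratio of KO over WT of the tested members was -0.32 under cisplatin, -0.64 under doxorubicin, -0.033 under tunicamycin and -0.18 in control, against 0.020, 0.042, 0.035 and 0.0070 over all tested genes. By level in control, KO cells ran from DKK1 (133 FPKM) through FZD2, WNT7B, WNT5B, FZD6, TCF7L2, LRP6, WNT5A and ROR1 to AXIN2 (0.729 FPKM). WT cells ran from DKK1 (236 FPKM) through FZD2, WNT7B, WNT5B, FZD6, TCF7L2, LRP6, ROR1 and AXIN2 to WNT5A (0.139 FPKM). Without a spread, no order between neighbours in these rows can be tested.

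**Figure D1:**
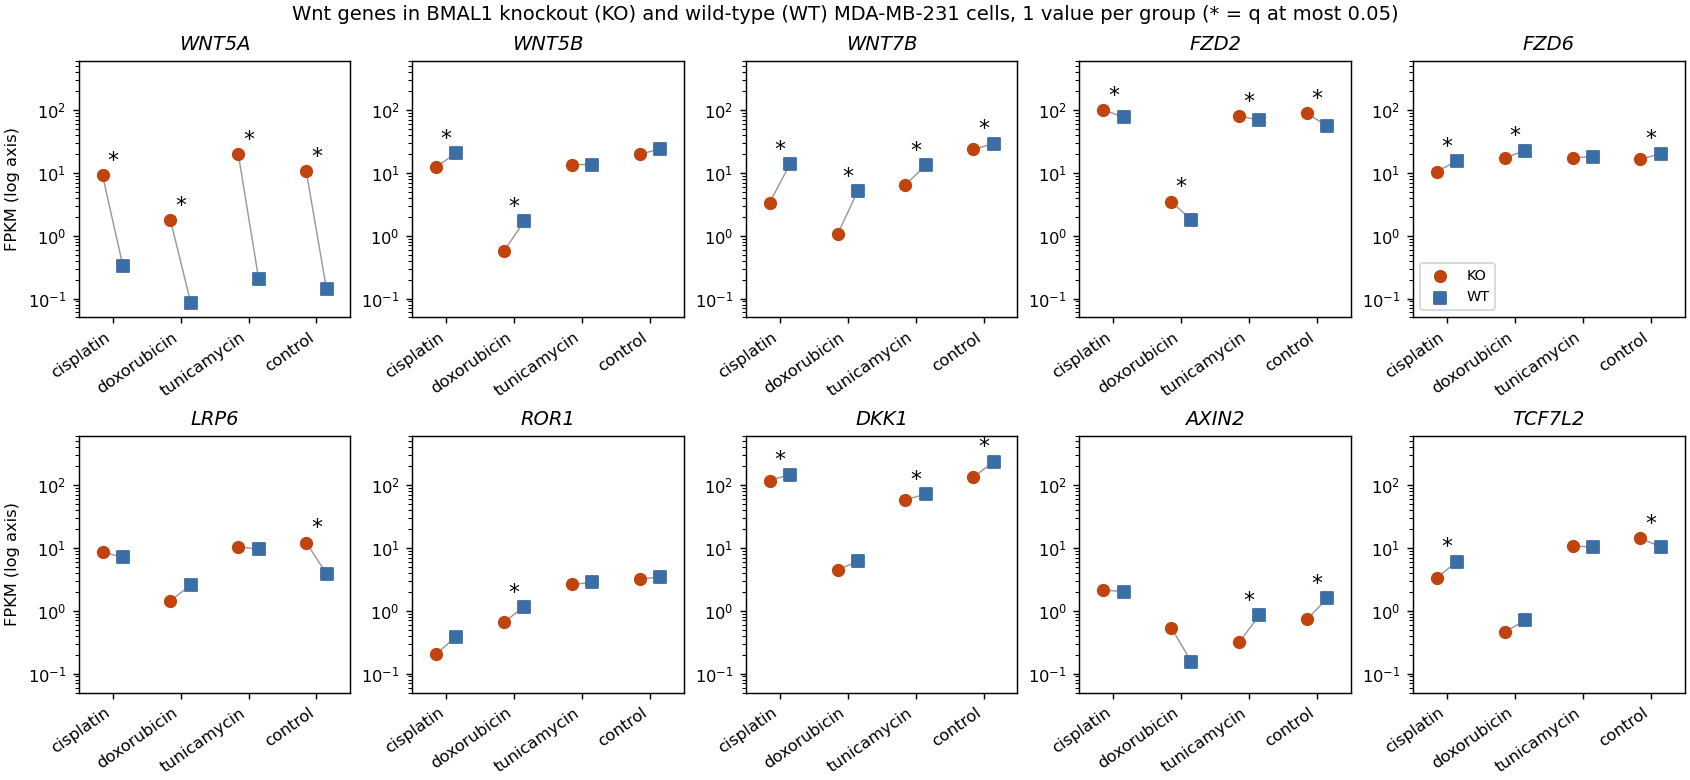
FPKM of the 10 Wnt genes (log axis) in KO (circles) and WT (squares) cells under each treatment, 1 value per group pooled from 2 replicates, with an asterisk where q was at most 0.05. WNT5A stands at 1.76 FPKM or more in every KO group and at 0.332 FPKM or less in every WT group, and most genes drop to their lowest levels under doxorubicin.

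Among the ligands, WNT5A was close to silent in WT cells and expressed in KO cells. Its KO level was above that of 49.6% of tested genes under cisplatin, 29.5% under doxorubicin, 67.2% under tunicamycin and 49.1% in control. WNT5A (ENSG00000114251; GRCh38 chromosome 3, 55465715 to 55490539, minus strand, in GENCODE release 29) had 9.09 FPKM in KO and 0.332 in WT cells under cisplatin, 1.76 and 0.0855 under doxorubicin, 19.7 and 0.203 under tunicamycin, and 10.5 and 0.139 in control. The lowest KO level was that under doxorubicin. The KO level was 27.4-fold, 20.6-fold, 96.9-fold and 75.7-fold higher in these 4 comparisons, with q = 0.000167, 0.0116, 0.000173 and 0.000213 in the authors' deposited table. Except under doxorubicin, these q-values are the smallest of their tables, shared by 4267 genes under cisplatin, 4016 under tunicamycin and 3044 in control, so they do not rank genes. By size of the ratio WNT5A stood at place 21 of 14142, 40 of 11754, 16 of 13797 and 13 of 12803 tested genes with a finite ratio, counted from the highest in KO. The WT levels are low, so the size of each fold is uncertain. In bulk RNA a larger share of cells expressing a gene and more RNA per cell cannot be told apart. Each chromosome was also cut into fixed windows of 10 Mb. The other tested genes in the window that holds WNT5A had median log2 ratios of -0.16, -0.21, -0.15 and -0.21, on the other side of 0. The nearest tested gene on the higher-coordinate side, ERC2 at 17.8 kb, had 1.18 FPKM in KO and 1.07 in WT cells under cisplatin and 0.977 and 0.919 under tunicamycin, without a call.

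WNT5B, a close paralogue of WNT5A, did not share this pattern. WNT5B (ENSG00000111186; chromosome 12, 1529891 to 1647243, plus strand) had 12.4 FPKM in KO and 20.8 in WT cells under cisplatin, 0.570 and 1.71 under doxorubicin, 13.5 and 13.5 under tunicamycin, and 19.7 and 24.0 in control. It was lower in KO cells under cisplatin (log2 ratio -0.75, q = 0.000167) and doxorubicin (-1.58, q = 0.000690) in the authors' deposited table. Under tunicamycin (0.00, q = 0.998) and in control (-0.28, q = 0.140) the authors' deposited table gave no call.

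WNT7B, a ligand that can act through beta-catenin and is best known from lung and kidney development, was the member called lower in KO cells under every treatment. WNT7B (ENSG00000188064; chromosome 22, 45920362 to 45977129, minus strand) had 3.34 FPKM in KO and 13.8 in WT cells under cisplatin, 1.05 and 5.19 under doxorubicin, 6.46 and 13.2 under tunicamycin, and 23.6 and 29.2 in control. The difference was small in control and several-fold under the 2 DNA-damaging drugs. The log2 ratios were -2.05, -2.30, -1.03 and -0.31, with q = 0.000167, 0.000186, 0.000173 and 0.00392 in the authors' deposited table. The ratios under the drugs differed from that in control by -1.74, -1.99 and -0.72 log2 units, differences that carry no test because the tables give no error to combine.

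The make-up of the Wnt ligand RNA differed between the genotypes as well. Over the summed FPKM of 19 Wnt ligand genes, WNT5A made up 29.3% in KO and 0.697% in WT cells under cisplatin, 38.4% and 0.859% under doxorubicin, 46.8% and 0.619% under tunicamycin, and 18.3% and 0.228% in control. WNT7B made up 10.7% in KO and 29.0% in WT cells under cisplatin, 22.9% and 52.1% under doxorubicin, 15.4% and 40.1% under tunicamycin, and 41.0% and 47.9% in control. WNT5B made up 39.8% in KO and 43.7% in WT cells under cisplatin, 12.4% and 17.1% under doxorubicin, 32.2% and 41.2% under tunicamycin, and 34.2% and 39.3% in control. WNT5A was thus the first ligand by level in KO cells under doxorubicin and tunicamycin, and WNT5B or WNT7B was first in the other 6 groups. The summed ligand level was 31.1 FPKM in KO and 47.7 in WT cells under cisplatin, 4.59 and 9.95 under doxorubicin, 42.1 and 32.8 under tunicamycin, and 57.6 and 61.1 in control. FPKM is per transcript length, so levels of different genes can be set side by side, but the shares carry no error and no test. Shares within a group are coupled, so that a larger WNT5A share leaves less for the other ligands. Under tunicamycin, where the WNT5B share was lower in KO cells, WNT5B itself had 13.5 FPKM in both genotypes.

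**Figure D2:**
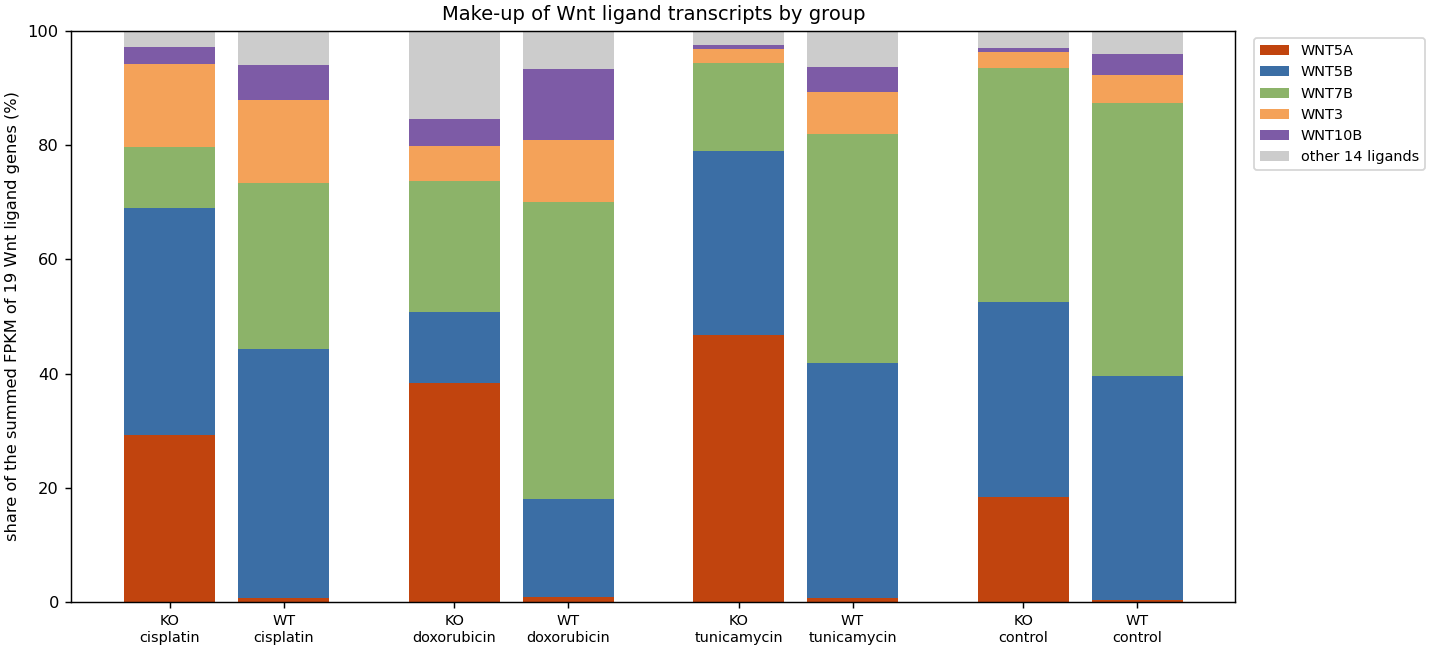
Share of the summed FPKM of 19 Wnt ligand genes (percent, y axis) held by each ligand in the KO and WT group of each treatment. The WNT5A segment takes 18.3% to 46.8% of the bar in KO groups and 0.859% or less in WT groups.

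Of the receptors, FZD2 was higher in KO cells throughout, FZD6 was lower outside tunicamycin, and LRP6 was called in control alone. FZD2, a Frizzled receptor that WNT5A can use (ENSG00000180340), lies on chromosome 17, 44557459 to 44559570, on the plus strand. It had 100.3 FPKM in KO and 77.0 in WT cells under cisplatin, 3.49 and 1.79 under doxorubicin, 80.6 and 68.8 under tunicamycin, and 88.6 and 55.5 in control. The log2 ratios were 0.38, 0.97, 0.23 and 0.67, with q = 0.000167, 0.000186, 0.000173 and 0.000213 in the authors' deposited table, so the changes were called although they stayed below 2-fold. FZD6, a Frizzled receptor tied mainly to planar cell polarity (ENSG00000164930), lies on chromosome 8, 103298433 to 103332866, on the plus strand. It had 10.5 FPKM in KO and 15.5 in WT cells under cisplatin, 17.3 and 22.5 under doxorubicin, 17.3 and 18.1 under tunicamycin, and 16.4 and 20.2 in control. It was lower in KO cells under cisplatin (log2 ratio -0.57, q = 0.000167), doxorubicin (-0.38, q = 0.000186) and in control (-0.30, q = 0.0276), and not called under tunicamycin (-0.07, q = 0.352), in the authors' deposited table. FZD6 shares 138 of its 4065 exon bases with the antisense gene BAALC-AS1 (0.406 to 1.54 FPKM).

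Among the 10 Frizzled genes FZD2 held the largest share of summed FPKM outside doxorubicin, with 64.8% in KO and 54.1% in WT cells under cisplatin, 65.4% and 58.7% under tunicamycin and 64.4% and 47.5% in control. Under doxorubicin FZD2 fell to 14.1% in KO and 6.58% in WT cells. FZD6 then made up 69.7% of Frizzled FPKM in KO and 83.0% in WT cells, against 11.9% and 17.3% in control.

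LRP6, the co-receptor of the beta-catenin branch (ENSG00000070018; chromosome 12, 12116025 to 12267012, minus strand), had 8.51 FPKM in KO and 7.14 in WT cells under cisplatin, 1.44 and 2.59 under doxorubicin, 10.5 and 9.46 under tunicamycin, and 12.1 and 3.87 in control. In control it was higher in KO cells (log2 ratio 1.65, q = 0.000407), while q was 0.503, 0.130 and 0.565 under cisplatin, doxorubicin and tunicamycin in the authors' deposited table. The WT control level was below the WT levels under cisplatin and tunicamycin and above that under doxorubicin. In KO cells the levels under cisplatin, tunicamycin and control were 8.51 to 12.1 FPKM. Without a value per library it cannot be seen whether 1 replicate sets the WT control level. ROR1, a receptor tyrosine kinase for WNT5A (ENSG00000185483; chromosome 1, 63774022 to 64181498, plus strand), had 0.205 FPKM in KO and 0.388 in WT cells under cisplatin, where the authors did not test it. It had 0.663 and 1.16 FPKM under doxorubicin, 2.62 and 2.82 under tunicamycin, and 3.22 and 3.41 in control. Only the doxorubicin difference was called (log2 ratio -0.80, q = 0.0223), with q = 0.742 under tunicamycin and 0.729 in control, in the authors' deposited table.

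**Figure D3:**
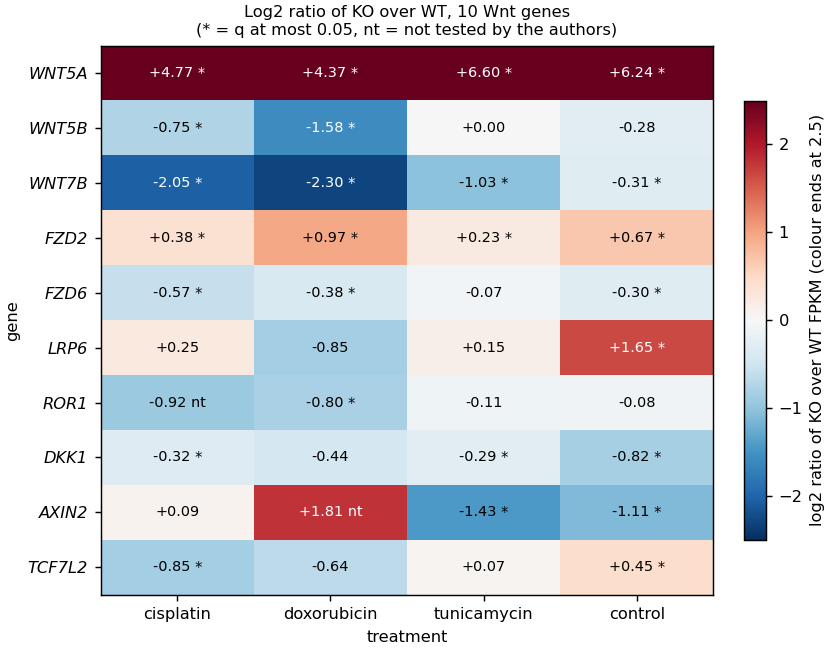
Deposited log2 ratio of KO over WT FPKM for each Wnt gene under each treatment, with calls (q at most 0.05) marked. WNT5A reaches 4.37 to 6.60. FZD2 is above 0 and called in all 4 tables, and WNT7B is below 0 and called in all 4. FZD6, DKK1 and ROR1 are also below 0 in all 4 but not called in each. TCF7L2 is called in opposite directions under cisplatin (-0.85) and in control (0.45).

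The feedback members DKK1 and AXIN2 were lower in KO cells wherever they were called. Other feedback and target genes, set out further below, were called in both directions. DKK1, a secreted antagonist that binds LRP5 and LRP6 (ENSG00000107984; chromosome 10, 52314296 to 52318042, plus strand), was the most abundant member in 5 of the 8 groups, with FZD2 above it in KO cells under tunicamycin and FZD6 above it in both doxorubicin groups. It had 118 FPKM in KO and 147 in WT cells under cisplatin, 4.50 and 6.10 under doxorubicin, 58.6 and 71.7 under tunicamycin, and 133 and 236 in control. The log2 ratios were -0.32, -0.44, -0.29 and -0.82, with q = 0.000167, 0.251, 0.000335 and 0.000213 in the authors' deposited table. DKK1 shares 212 of its 2206 exon bases with the antisense gene PRKG1-AS1, which had 0.586 to 1.74 FPKM, and no source used here says whether counting used the strand. Its promoter window is the one that holds both CTTTGA matches shown above.

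AXIN2, a scaffold of the complex that marks beta-catenin for destruction and a widely used read-out of beta-catenin activity (ENSG00000168646), lies on chromosome 17, 65528563 to 65561647, on the minus strand. It had 2.14 FPKM in KO and 2.01 in WT cells under cisplatin, 0.540 and 0.154 under doxorubicin, 0.314 and 0.843 under tunicamycin, and 0.729 and 1.58 in control. It was lower in KO cells under tunicamycin (log2 ratio -1.43, q = 0.0166) and in control (-1.11, q = 0.0238), gave no call under cisplatin (0.09, q = 0.844), and was not tested under doxorubicin, in the authors' deposited table. All its levels were low, at 2.14 FPKM or less. It shares 1316 of its 5226 exon bases with AC004805.1 on the same strand, a gene listed at 0 in all 8 groups. TCF7L2, the TCF/LEF factor through which beta-catenin reaches DNA in many tissues (ENSG00000148737; chromosome 10, 112950250 to 113167678, plus strand), had 3.35 FPKM in KO and 6.06 in WT cells under cisplatin, 0.453 and 0.708 under doxorubicin, 10.8 and 10.3 under tunicamycin, and 14.2 and 10.4 in control. It was lower in KO cells under cisplatin (log2 ratio -0.85, q = 0.00557) and higher in control (0.45, q = 0.0324), with q = 0.345 under doxorubicin and 0.678 under tunicamycin, in the authors' deposited table. The difference between these opposite calls was not tested. TCF7L2 shares 300 of 6736 exon bases with the antisense gene AL158212.2 (0.247 FPKM or less). Beta-catenin itself, CTNNB1, is named here after its values were seen. It had 136 FPKM in KO and 143 in WT cells under cisplatin, 109 and 103 under doxorubicin, 117 and 108 under tunicamycin, and 165 and 154 in control, differences of at most 0.12 log2 units.

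Levels of the members also differed between the drug and control tables, most of all with doxorubicin. The scale here is log2 of FPKM + 1, drug over control within a genotype, which understates low genes. The 2 values of each response come from tables that were normalized separately, and no test is possible. Under doxorubicin DKK1 had a response of -4.61 in KO and -5.06 in WT cells, FZD2 -4.32 and -4.34, WNT5B -3.72 and -3.21, WNT7B -3.58 and -2.29, and TCF7L2 -3.39 and -2.74. The median response of all genes with 1 FPKM or more in both groups was -0.41 in KO and -0.46 in WT cells, so these 5 genes lay well below it. FZD6, at 0.07 in KO and 0.15 in WT cells, was the member above 0 in both genotypes. Below -1 were 8 of 10 members in KO and 7 of 10 in WT cells, against 34.3% and 33.7% of all those genes, and against 42.4% and 41.1% of genes with 10 FPKM or more in control. The members were not held to these filters, and TCF7L2 had 0.453 FPKM in KO and 0.708 in WT cells under doxorubicin. Genes below 1 FPKM with the drug are left out of the median and the first pair of shares, but not of the second pair.

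The doxorubicin response of LRP6 was -2.43 in KO and -0.44 in WT cells, and that of WNT5A -2.06 and -0.07. WNT5A was already at 0.139 FPKM in WT control cells. How many members differ by more than 1.5 log2 units between genotypes depends on the scale, with these 2 at a pseudocount of 1 and 4 at a pseudocount of 0.1. At 0.1 LRP6 had -2.99 in KO and -0.56 in WT cells, WNT5A -2.51 and -0.37, WNT7B -4.36 and -2.47, and AXIN2, in the other direction, -0.37 and -2.72.

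Under cisplatin WNT7B, ROR1 and TCF7L2 were those below -1 in KO cells. WNT7B had a response of -2.50 in KO and -1.03 in WT cells, ROR1 -1.81 and -1.67, and TCF7L2 -1.81 and -0.69, whereas AXIN2 had 0.86 and 0.22. The median of all genes was 0.13 in KO and 0.09 in WT cells. Under tunicamycin WNT7B had -1.72 in KO and -1.09 in WT cells and DKK1 -1.17 and -1.70, against medians of -0.07 and -0.08. WNT5A had 0.84 in KO cells, 19.7 FPKM with tunicamycin against 10.5 without, and 0.08 in WT cells. LRP6 had -0.19 in KO and 1.10 in WT cells, of which the WT control level of 3.87 FPKM is the base.

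**Figure D4:**
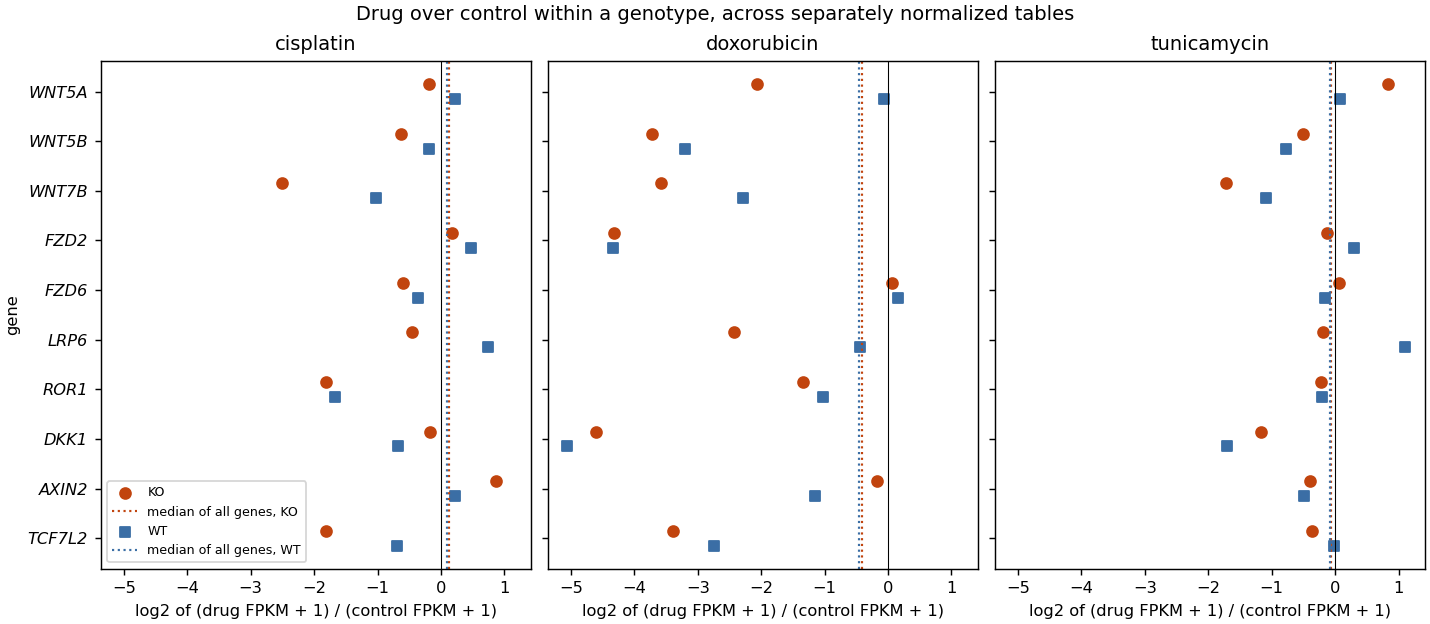
Response of each Wnt gene to each drug, as log2 of FPKM + 1 in drug over control (axis with values), in KO and WT cells. Under doxorubicin DKK1 and FZD2 lie at -4.32 or below in both genotypes, while FZD6 stays at 0.07 and 0.15.

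To place the members in their pathway, 124 genes in 9 lists of Wnt components and targets were counted in the same way. The lists overlap. AXIN2, DKK1, TCF7L2, LGR5, ZNRF3 and others are repeated between lists, so the counts by list partly hold the same genes. The totals over all lists leave repeats out. The lists too were chosen with earlier results of these data known. Calls under cisplatin took in 57 of 84 tested list genes (9 higher, 48 lower, median log2 ratio -0.32). Under doxorubicin 38 of 66 were called (15 higher, 23 lower, median -0.40), under tunicamycin 44 of 82 (11 higher, 33 lower, median -0.20), and in control 39 of 81 (21 higher, 18 lower, median 0.02). These are 67.9%, 57.6%, 53.7% and 48.1% of the tested list genes, against 49.6%, 45.1%, 49.3% and 43.8% of all tested genes, so the shares under tunicamycin and in control were near those of all genes. Lower calls outnumbered higher ones under the 3 drugs and not in control, while over all tested genes higher calls were the more frequent in each table, and the medians of all tested genes were 0.042 or less. These counts include the 10 members and describe the lists without a test, and every ratio given for a list gene is the log2 ratio of KO over WT in the authors' deposited table. Of the 64 list genes tested in all 4 tables, 3 were higher in all 4 (WNT5A, FZD2 and MAPK9), against 9% of all genes tested in all 4, and 12 were lower in all 4, against 8.66%. MAPK9, which encodes the kinase JNK2, had ratios of 0.36, 0.45, 0.58 and 0.43 under cisplatin, doxorubicin, tunicamycin and control.

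Among the ligands, every call other than WNT5A was lower in KO cells. Of 7 tested ligands under cisplatin 6 were lower (median log2 ratio -1.67), of 5 under doxorubicin 4 (-1.95), of 7 under tunicamycin 4 (-1.03) and of 6 in control 3 (-0.30), and WNT5A was the 1 higher call each time. Over all tested genes 24.2%, 20.7%, 22.1% and 21.1% were called lower. WNT10B, a ligand of the beta-catenin branch, had 0.908 FPKM in KO and 2.95 in WT cells under cisplatin, 0.221 and 1.24 under doxorubicin, 0.261 and 1.42 under tunicamycin, and 0.449 and 2.22 in control. WNT3, another ligand of that branch, had 4.51 FPKM in KO and 6.93 in WT cells under cisplatin, 0.278 and 1.07 under doxorubicin, 1.09 and 2.45 under tunicamycin, and 1.62 and 3.08 in control. WNT9A was lower under cisplatin, at 0.414 FPKM in KO and 1.32 in WT cells, and under tunicamycin, at 0.568 and 0.930. Of the genes needed for ligand secretion, WLS, the carrier of Wnt proteins, had ratios of -0.11, 0.12, 0.35 and -0.08, and PORCN, which attaches the lipid, -0.22, 0.00, -0.30 and 0.17, called in both cases under tunicamycin alone.

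Receptors and receptor regulators went both ways. Of tested receptors and co-receptors, 3 were higher and 5 lower of 12 under cisplatin, 4 and 4 of 10 under doxorubicin, 2 and 3 of 13 under tunicamycin, and 3 and 3 of 13 in control. The shares called were 66.7%, 80%, 38.5% and 46.2%, against 49.6%, 45.1%, 49.3% and 43.8% of all tested genes. LRP5, the partner of LRP6, had 2.36 FPKM in KO and 7.75 in WT cells under cisplatin and 21.7 and 16.6 in control. FZD8 had 12.2 FPKM in KO and 18.1 in WT cells under cisplatin and 2.00 in KO and 1.16 in WT cells under doxorubicin. FZD4 was lower under cisplatin, tunicamycin and in control, with ratios of -0.57, -1.02 and -0.98. In control the R-spondin receptors LGR4 (11.4 FPKM in KO, 7.75 in WT cells) and LGR5 (1.09 and 0.228) and the ligase ZNRF3, which removes Frizzled from the surface (3.49 and 2.09), were all called higher in KO cells. No other gene of their list was tested in control, where 22.7% of all tested genes were higher. Of the same list, 2 of 3 tested genes were lower under cisplatin, against 24.2% of all tested genes. Calls were 0 of 1 under doxorubicin and 0 of 2 under tunicamycin. Among antagonists and their receptors few genes were tested, DKK1 among them. Lower were 3 of 4 under cisplatin, 1 of 3 under doxorubicin, 2 of 4 under tunicamycin and 2 of 4 in control, with 0 higher. Of all tested genes 24.2%, 20.7%, 22.1% and 21.1% were lower and 25.4%, 24.4%, 27.2% and 22.7% higher. KREMEN2, a DKK1 receptor, was lower in all 4 tables with ratios of -0.99, -1.78, -1.48 and -1.12, at levels of 0.238 to 2.05 FPKM. DKK3 was lower under cisplatin (-1.03), at 0.688 FPKM in KO and 1.40 in WT cells.

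Inside the cell, the dishevelled, destruction complex and beta-catenin list had 2 higher and 7 lower of 14 under cisplatin, 2 and 3 of 11 under doxorubicin, 2 and 4 of 14 under tunicamycin, and 6 and 1 of 14 in control. The shares called were 64.3%, 45.5%, 42.9% and 50% against the 49.6%, 45.1%, 49.3% and 43.8% of all tested genes, close to them outside cisplatin. GSK3B, the kinase that phosphorylates beta-catenin, had 4.66 FPKM in KO and 10.7 in WT cells under cisplatin and 2.23 and 0.758 under doxorubicin, so it was called in opposite directions. APC2 was lower under cisplatin (-1.28), and TNKS2, a tankyrase that acts on axin, was lower under doxorubicin (-1.39) and tunicamycin (-0.21). In the nuclear list, 2 were higher and 4 lower of 11 under cisplatin, 3 and 1 of 10 under doxorubicin, 0 and 4 of 11 under tunicamycin, and 3 and 1 of 11 in control, or 54.5%, 40%, 36.4% and 36.4% called, under the share of all genes in each table but cisplatin. TLE1, a co-repressor of TCF factors, was lower in all 4 tables (-0.63, -0.70, -0.51 and -0.46). The other tested genes in its fixed 10 Mb window had median ratios of -0.27 to -0.40. BCL9L, a co-activator of beta-catenin, had 63.7 FPKM in KO and 25.6 in WT control cells. It had 63.4 FPKM in KO and 71.1 in WT cells under cisplatin, 3.57 and 4.74 under doxorubicin, and 60.5 and 68.8 under tunicamycin. The WT control level was thus below the WT levels under cisplatin and tunicamycin, and whether 1 replicate sets it cannot be seen.

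The feedback and target genes of beta-catenin were lower in 11 of 14 tested cases under cisplatin, with 0 higher, and in 8 of 13 under tunicamycin, with 1 higher. They were divided under doxorubicin (3 higher and 3 lower of 10) and in control (4 higher and 5 lower of 14). Of all tested genes 24.2% were lower and 25.4% higher under cisplatin, 20.7% and 24.4% under doxorubicin, 22.1% and 27.2% under tunicamycin, and 21.1% and 22.7% in control. CCND1, the cell cycle gene cyclin D1, had 126 FPKM in KO and 222 in WT cells under cisplatin, 127 and 374 under doxorubicin, 117 and 182 under tunicamycin, and 177 and 211 in control, lower in KO in all 4. CD44, an adhesion receptor, was also lower in all 4 (-1.24, -1.26, -1.25 and -0.91). The other tested genes in its fixed 10 Mb window had median ratios of -0.50 to -0.68. SP5, a target in many cell types, was lower under cisplatin (-0.93) and tunicamycin (-1.54), and FOSL1, a subunit of AP-1, under cisplatin (-0.79), doxorubicin (-1.34) and tunicamycin (-0.32).

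Of the planar polarity and calcium branch, 14 of 24 tested genes were lower and 1 higher under cisplatin, 7 lower and 3 higher of 18 under doxorubicin, 9 and 4 of 22 under tunicamycin, and 5 and 4 of 21 in control. The shares called were 62.5%, 55.6%, 59.1% and 42.9%, against 49.6%, 45.1%, 49.3% and 43.8% of all tested genes, so control was at the level of all genes. NFATC2, a calcium-dependent transcription factor, had 0.371 FPKM in KO and 5.03 in WT cells under cisplatin, 0.351 and 1.23 under doxorubicin, 1.77 and 5.99 under tunicamycin, and 1.501 and 5.17 in control. MAPK8 (JNK1) and PLCB3, a phospholipase, were lower in all 4 tables as well, with ratios of -0.27 to -0.83. PLCB4, another phospholipase, was higher under tunicamycin (1.14) and in control (1.11). NFATC1 (-1.09) and INVS (-1.35), a regulator of the choice between the branches, were lower under cisplatin, and INVS also under tunicamycin (-0.52).

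**Figure D5:**
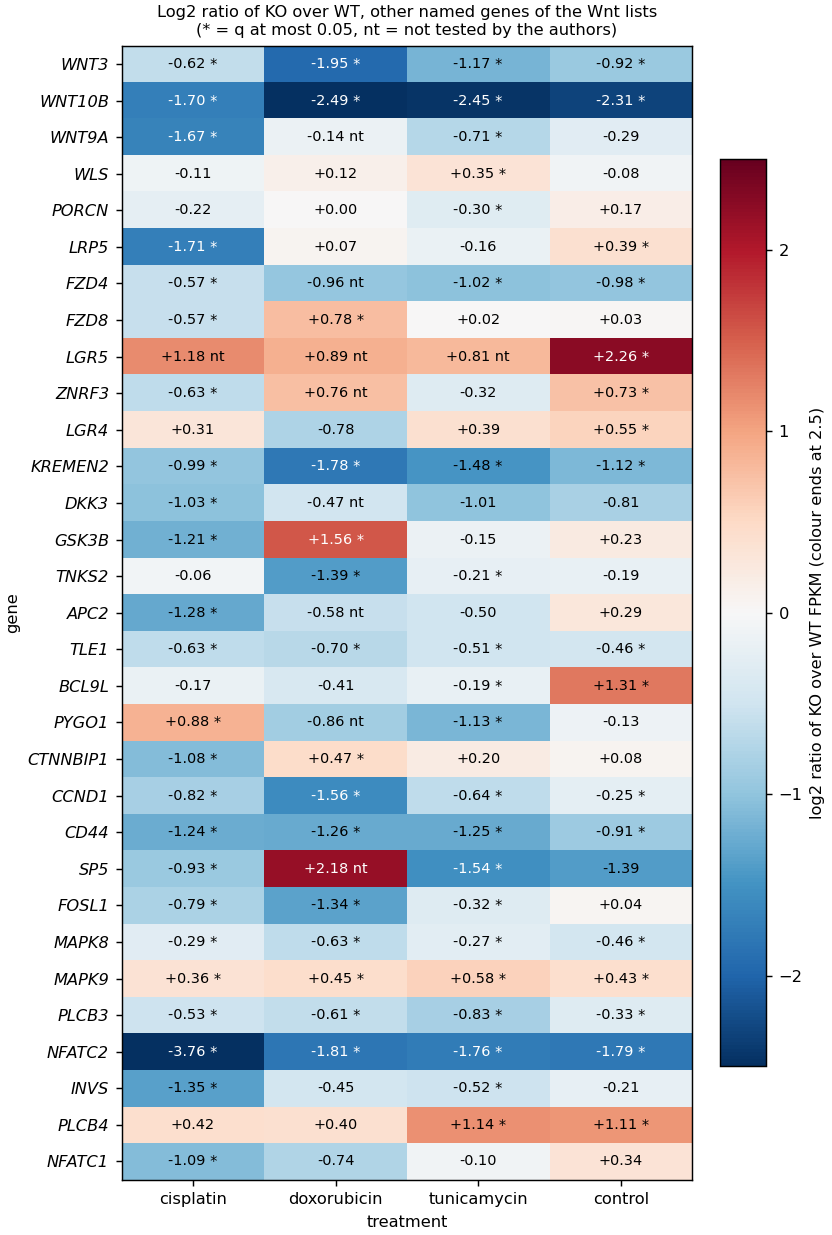
Deposited log2 ratio of KO over WT FPKM for the other named genes of the Wnt lists under each treatment, by colour, with calls (q at most 0.05) marked. WNT3, WNT10B, KREMEN2, TLE1, CCND1, CD44, MAPK8, PLCB3 and NFATC2 are below 0 and called in all 4 tables, and MAPK9 is above 0 and called in all 4.

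Genes whose levels followed those of a member over the 8 groups were looked up among 14218 genes with 1 FPKM or more in some group, by Pearson's r of log2(FPKM + 1), for the 7 members whose range was 2 or more. The 8 points are the same groups, with shared scaling, and r is given as a description only. For WNT5A the most alike were the cytokine gene CSF3 (r = 0.997), the antisense gene WNT5A-AS1 (0.994) and ALPK2 (0.985). CSF3 had 12.2, 2.30, 28.0 and 15.7 FPKM in KO cells under cisplatin, doxorubicin, tunicamycin and control, and 0.0962, 0.214, 0.220 and 0.180 in WT cells. WNT5A-AS1 had 3.05, 0.593, 6.98 and 4.36 FPKM in KO cells in the same order, and 0.217, 0, 0.0865 and 0 in WT cells. It overlaps WNT5A on the other strand but shares 0 exon bases with it, and since no source used here states the use of strand in counting, reads of one counted for the other cannot be told apart. For WNT5B the most alike genes were PTER, BMP2K and SKI (r of 0.993 to 0.997), for WNT7B OXTR, PEX3 and TMEM62 (0.971 to 0.972), for FZD2 SMARCAL1, AP1G1 and PPAN (0.998 to 0.999), for LRP6 PTCH1, RREB1 and ANAPC1 (0.968 to 0.974), for DKK1 CCDC77, KPNA2 and PRPSAP1 (0.996 to 0.997), and for TCF7L2 ANKRD27, TACC2 and ASH1L (0.994 to 0.995). These names depend on the measure. With Spearman's rho 1 of the 3 genes stayed for WNT5A and for WNT5B and 0 of 3 for the other 5 members, and with a pseudocount of 0.1 each set kept 1 or 2 of its 3 genes.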

How the data were processed

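RNA-seq of 16 samples was deposited as 4 tables, 1 per treatment, each setting BMAL1 KO against WT cells. DNase-treated RNA was made into mRNA libraries and sequenced from both ends, per the labels' protocols. The submitters' processing notes name build hg38, the aligner STAR (2.5.3), Cufflinks and Cuffdiff, as well as Trimmomatic (0.35) and FastQC (0.11.5). The sources used here do not give the annotation release, the strand setting or any depth. Per the file headers, the authors deposited 1 FPKM per group, pooled over both replicates. The log2 ratio deposited by the authors is KO over WT FPKM with no pseudocount (recomputed to within 4.64e-05). Cuffdiff's test statistic, a score deposited by the authors for each gene, was not used. The p-value and q-value of each gene are the authors' deposited ones, with p no smaller than 5e-05. The q-values were recomputed by Benjamini-Hochberg adjustment to within 5.25e-07. Columns were assigned to KO and WT from the group order in the table names and the codes inside the tables. The p-values measure only the spread that the authors' method estimated between 2 replicates per group, for which separate cultures are not described beyond the word biological.

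Python 3.11.15 with pandas 2.3.3, numpy 2.4.6 and matplotlib 3.10.9 was used, and the scripts were tested on simulated data. No refit was possible without values per library. A call needs the authors' tested status and q at most 0.05. Because each table has its own normalization, every test is within 1 table and levels set across tables are descriptions. Positions and overlaps come from GENCODE release 29 and promoter windows from RefSeq. The members and lists were chosen with earlier results of these data known. All members are named. Of other list genes, those called the same way in all 4 tables are named, plus up to 3 per list with the largest ratio where called at 1 FPKM or more in 1 group. Of the genes this rule names, 2 are not reported here. Like genes were the 3 with the highest r per member.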

Additional observations from a re-analysis of the deposited data

Results flagged for a closer look

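Of the 124 Wnt list genes, 16 were called higher in KO cells in one table and lower in another. The values below are those of the 9 that are named in the results, and the other 7 were FZD1, FZD7, PTK7, DVL1, DVL3, MYC and JUN. Between 43.8% and 49.6% of all tested genes were called in each table. The share of all genes called in both directions was not computed. The count of 16 therefore cannot be read as a trait of the Wnt genes. None of these differences between treatments was tested, because the tables give no error that can be combined, and each value is the log2 ratio of KO over WT in the authors' deposited table. TCF7L2 had -0.85 under cisplatin and 0.45 in control. LRP5, a co-receptor, had -1.71 under cisplatin and 0.39 in control, and ZNRF3, a receptor-removing ligase, -0.63 and 0.73. FZD8 had -0.57 under cisplatin and 0.78 under doxorubicin. GSK3B had -1.21 under cisplatin and 1.56 under doxorubicin, and CTNNBIP1, an inhibitor of beta-catenin binding to TCF factors, -1.08 and 0.47. BCL9L had -0.19 under tunicamycin and 1.31 in control. PYGO1, a partner of BCL9 proteins, had 0.88 under cisplatin and -1.13 under tunicamycin. CTNNB1 had -0.075 under cisplatin, 0.083 under doxorubicin, 0.12 under tunicamycin and 0.096 in control, all small.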

How the results depend on the processing

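No paired analysis was possible because the tables hold no value per library, and for the same reason leaving out a replicate was not run. A Bonferroni rule was not run as an alternative, since the smallest deposited p could not pass it in any table. Requiring at least 1.5-fold left 4 members called under cisplatin, 3 under tunicamycin and 5 in control, and 33, 21 and 21 Wnt list genes, while q at most 0.01 left 5 members in control. The other alternative counts of calls stayed within 1.5 times, including those with 1 FPKM or more in a group and with ratios centred on the median. Under median centring the ratio of WNT5B under tunicamycin turned negative, at -0.035. With a pseudocount of 1 the tunicamycin minus control ratio difference of AXIN2 turned positive, at 0.087, and 17 of the 30 differences moved by over 0.1. Centring the drug responses gave doxorubicin values of 0.24 for AXIN2 in KO, 0.39 for WNT5A in WT and 0.019 for LRP6 in WT cells, and a tunicamycin value of 0.065 for TCF7L2 in WT cells. Centring subtracts the median of all genes, which is what moves these values, and it moved 30 of 60 responses by over 0.1. A pseudocount of 0.1 moved 31 of 60 drug responses by over 0.1, with no change of sign. Depth per library is unknown, so levels near 0.1 FPKM carry no interval.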
